A study of Oryza sativa with 8 samples.

Results

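Abscisic acid is the plant hormone of drought, seed dormancy and growth restraint. The genes described here are 6 rice loci that set its level, out of 55801 loci measured. They were chosen by locus identifier and function. The rule uses no measured value, but it was set with earlier results of these data known. LOC_Os02g47510, LOC_Os03g44380 and LOC_Os07g05940 are 9-cis-epoxycarotenoid dioxygenases, and LOC_Os02g47470, LOC_Os08g36860 and LOC_Os09g28390 are abscisic acid 8'-hydroxylases 1, 2 and 3. The table itself names the first 3 as dioxygenases of this kind and the last 3 only as cytochrome P450. RNA was sequenced from 4 groups of 2 libraries each: the first leaf in shade, the first leaf in white light, the coleoptile in shade and the coleoptile in white light. The coleoptile is the sheath around the shoot of a grass seedling. All plants were wild-type Nipponbare. Their seeds were soaked at 37 °C for 24 h, and the seedlings grew at 28 °C in continuous white light, on 0.4% agar or floating on water. The first leaf was taken at an age of 3 days and the coleoptile at 2 days. Tissue and age cannot be told apart. Shaded seedlings spent their last 1 h under LED light with 16 µE per square metre per second of red, 1.3 of blue and 48 of far-red light. White light seedlings stayed in white light.

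Abscisic acid is made from carotenoids. Dioxygenases of the 9-cis-epoxycarotenoid type cut the carotenoid in the plastid, a step widely regarded as the rate-limiting one, and their genes respond quickly to water loss. The 8'-hydroxylases, cytochrome P450 enzymes of the CYP707A family, carry out the main inactivation of the hormone. In each tissue the level of the hormone rests on the balance of both enzyme groups, and both are small gene families whose members differ in where and when they are used.

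Levels are in FPKM, a fragment number divided by transcript length and by library size, so that genes can be compared per length. Changes are differences of log2(FPKM + 1) between groups, which understate the change of low genes. The word called stands for an adjusted p under 0.05 (limma on all 8 libraries, Benjamini-Hochberg over all tested loci). Loci averaging 1 FPKM or more were tested, 21014 in all and 5 of the 6 genes among them. LOC_Os09g28390 averaged 0.933 FPKM and was below that filter. Whether the 2 replicates of a group were grown separately is not stated in the labels. The p-values therefore reflect only how far these libraries spread, which may be technical. Each gene's SE draws on its spread in all 4 groups, so a wide gap in 1 group widens it in every comparison. A fit that leaves out 1 library leaves 1 in that group, so its p-values take no spread from that group. Libraries summed to between 696059 and 808054 FPKM, and their relative depth, read from the steps between low values, ranged from 0.827 to 1.37 (coleoptile shade replicate 1 set to 1). Replicates correlated at r = 0.975 to 0.982 across loci in 3 groups and at 0.914 in the white light coleoptile, where 3167 loci were over 2-fold apart against 299 to 566 in the other groups.

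Only 1 of the 5 tested genes was called between tissues in each light. Over all tested loci the shares called were 11.0% in white light and 10.3% in shade. LOC_Os02g47510 had the highest FPKM of the dioxygenase genes in first leaf libraries. It was close to 0 in the coleoptile, and its difference between tissues was called in both lights. The other dioxygenases, LOC_Os03g44380 and LOC_Os07g05940, had their higher levels in coleoptile libraries, with a wide spread, and were not called. Among the breakdown genes, 8'-hydroxylase 1 was abundant in both tissues and 8'-hydroxylase 2 was higher in every coleoptile library than in every first leaf library, without passing the threshold. After 1 h of shade 0 of the 5 tested genes were called in either tissue.

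**Figure D1:**
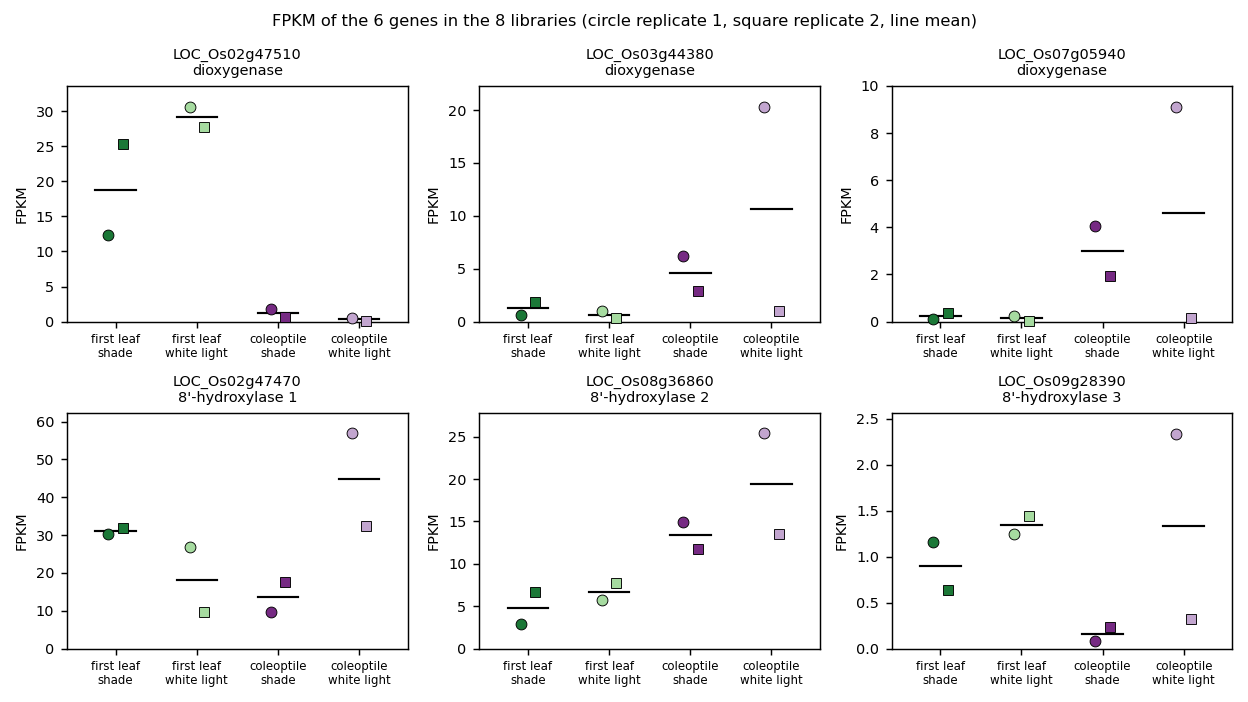
FPKM (linear axis from 0) of each of the 6 genes in the 4 groups, with a circle for replicate 1, a square for replicate 2 and a line for the mean. LOC_Os02g47510 lies between 12.3 and 30.5 FPKM in first leaf libraries and at or under 1.74 FPKM in coleoptile libraries. Coleoptile white light replicate 1 is the highest of the 8 libraries for the other 5 genes. Among coleoptile libraries alone that library is the highest for 31.5% of all tested loci.

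The first comparison set the first leaf against the coleoptile. LOC_Os02g47510, on chromosome 2, was at 12.3 and 25.4 FPKM in the shaded first leaf and at 30.5 and 27.8 FPKM in the white light first leaf. In the coleoptile it was at 1.74 and 0.721 FPKM in shade and at 0.544 and 0.121 FPKM in white light. Every first leaf library was thus above every coleoptile library. In white light the first leaf averaged 29.2 ± 1.95 FPKM and the coleoptile 0.333 ± 0.299 FPKM (SD, n = 2 each). This is a log2 change of 4.52 ± 0.38 (SE; limma adjusted p = 0.000865). In shade the first leaf averaged 18.8 ± 9.26 FPKM and the coleoptile 1.23 ± 0.720 FPKM (SD, n = 2 each), a log2 change of 3.11 ± 0.38 (limma adjusted p = 0.00348). Only 0.281% of the tested loci had a larger change in either direction in white light, and 0.957% in shade. LOC_Os02g47510 was 1 gene called higher of 5 tested in each light, against 5.92% of all tested loci called higher in white light and 5.67% in shade. Of the 5 genes 0 were called lower, against 5.03% in white light and 4.63% in shade (in either direction 11.0% and 10.3%). Libraries lay apart with the first leaf higher for 3 of the 6 genes in shade, where 31.2% of tested loci did so, and for 1 of 6 in white light, where 26.5% did. With the first leaf lower they lay apart for 3 of 6 genes in shade, where 29.4% of tested loci did so, and for 2 of 6 in white light, where 23.0% did. In bulk RNA fewer cells of a type and less RNA per cell cannot be told apart.

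The 17 loci annotated as chlorophyll a-b binding proteins, the light-harvesting proteins of green cells, were all at 1 FPKM or more in every library. Their summed FPKM ran from 25646 to 35181 in first leaf libraries and from 12421 to 22141 in coleoptile libraries. The white light first leaf had 1.95 times the summed level of the white light coleoptile, where LOC_Os02g47510 had 87.6 times. In shade the ratios were 1.43 and 15.3. Between single libraries the ratio of LOC_Os02g47510 ran from 51.0 to 252 in white light, over coleoptile values of 0.544 and 0.121 FPKM, and from 7.07 to 35.2 in shade. The summed level is an RNA level and not a count of green cells. The part of green cells in the tissue difference was not tested. Of 50 seed loci, annotated as glutelin, prolamin or oleosin, at most 3 reached 1 FPKM in a library and 40 to 44 were at 0. The 3 root markers summed to between 11.5 and 25.6 FPKM. Among them LOC_Os02g51110 was at 12.7 to 24.3 FPKM in first leaf libraries and at 4.35 to 11.6 FPKM in coleoptile libraries. LOC_Os02g37190 was at 0.255 to 1.08 FPKM in the first leaf and at 1.77 to 7.18 FPKM in the coleoptile, and LOC_Os03g01700 reached at most 0.204 FPKM. Their part in the tissue difference was not tested.

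LOC_Os03g44380, a dioxygenase on chromosome 3, was at 0.653 and 1.87 FPKM in the shaded first leaf and at 0.989 and 0.338 FPKM in the white light first leaf. Its coleoptile values were 6.24 and 2.90 FPKM in shade and 20.3 and 0.976 FPKM in white light. The groups of the 2 tissues did not overlap in shade, and in white light coleoptile replicate 2 lay within the first leaf range. The log2 change, first leaf minus coleoptile, was -1.29 ± 0.98 in shade and -1.99 ± 0.98 in white light (SE; limma adjusted p = 0.495 and 0.270). The SE in shade also takes in the gap between the white light coleoptile replicates, 3.43 on the log2 scale. Replicate 1 minus replicate 2 was -0.79 in the shaded first leaf and 0.89 in the shaded coleoptile. Without coleoptile white light replicate 2, which leaves 1 library in that group, the white light change was -3.70. Leaving out replicate 1 gave -0.28. The white light value thus rested on which of the 2 coleoptile libraries was used.

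LOC_Os07g05940, a dioxygenase on chromosome 7, had the same pattern at a lower level. It was at 0.104 and 0.379 FPKM in the shaded first leaf and at 0.222 and 0.0429 FPKM in the white light first leaf. In the coleoptile it was at 4.05 and 1.92 FPKM in shade and at 9.09 and 0.165 FPKM in white light. The tissues did not overlap in shade (log2 change -1.64 ± 0.88 SE, limma adjusted p = 0.314) and overlapped in white light (-1.60 ± 0.88, adjusted p = 0.322). With coleoptile white light replicate 2 left out, the white light change was -3.16. Leaving out replicate 1 gave -0.05. In shade the change of -1.64 uses no white light library. In a fit to the 4 shaded libraries alone it was called (limma adjusted p = 0.0109). In that fit 2205 of 21014 tested loci were called higher in the first leaf and 1800 lower.

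The 3 genes together gave a different make-up of dioxygenase RNA in each tissue. LOC_Os02g47510 made up 91.9% to 98.6% of their summed FPKM in first leaf libraries and 1.82% to 14.5% in coleoptile libraries. The table holds 2 more loci with this annotation, both on chromosome 12. LOC_Os12g24800 was at 4.71 and 2.60 FPKM in the shaded first leaf and at 6.20 and 2.74 FPKM in the white light first leaf, against at most 0.0894 FPKM in any coleoptile library. It was called higher in the first leaf in shade (log2 change 2.09, limma adjusted p = 0.0142) and in white light (2.29, adjusted p = 0.00963). LOC_Os12g42280 was between 0.152 and 1.37 FPKM and was not tested. With these loci counted, LOC_Os02g47510 made up 67.4% to 88.6% of the family in first leaf libraries.

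**Figure D2:**
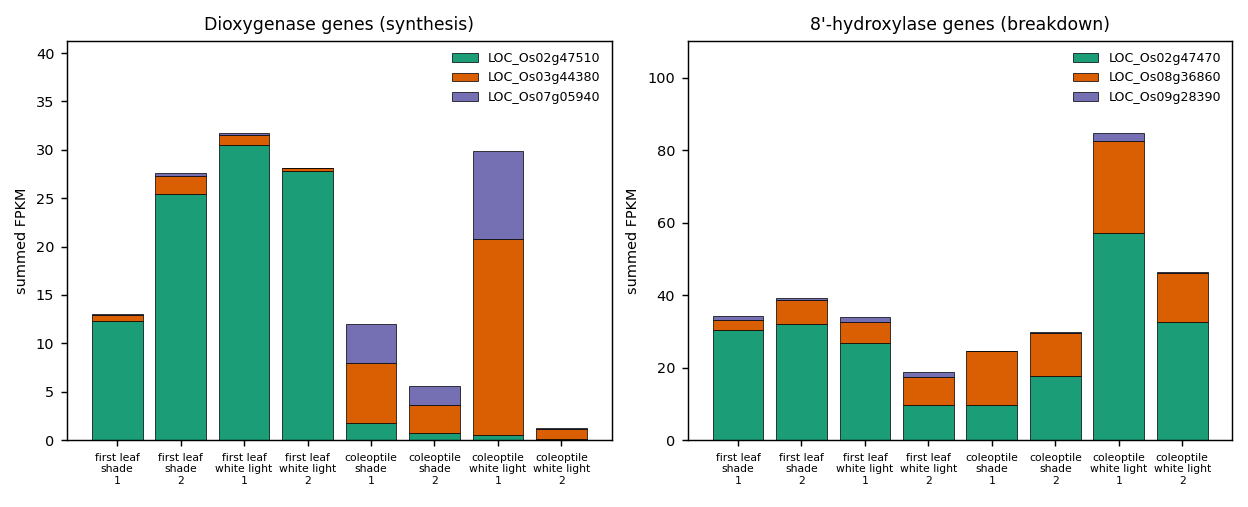
Summed FPKM (axis from 0) of the 3 dioxygenase genes (left) and the 3 8'-hydroxylase genes (right) in each library, with 1 colour per gene. LOC_Os02g47510 fills 91.9% to 98.6% of the dioxygenase bars of the first leaf, and the tallest hydroxylase bar, 84.8 FPKM, is coleoptile white light replicate 1.

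Of the breakdown genes, 8'-hydroxylase 1 (LOC_Os02g47470, chromosome 2) had the highest mean over the libraries, 26.9 FPKM. It was at 30.2 and 31.9 FPKM in the shaded first leaf and at 26.8 and 9.62 FPKM in the white light first leaf. Its coleoptile values were 9.64 and 17.7 FPKM in shade and 57.1 and 32.5 FPKM in white light. The first leaf was therefore above the coleoptile in shade and below it in white light, in each case with no overlap. The log2 change, first leaf minus coleoptile, was 1.18 ± 0.49 in shade and -1.36 ± 0.49 in white light (SE; limma adjusted p = 0.195 and 0.136). Neither passed. In a fit to the 4 shaded libraries alone the shade difference was called (limma adjusted p = 0.0215), where 2205 tested loci were called higher and 1800 lower.

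The second, 8'-hydroxylase 2 (LOC_Os08g36860, chromosome 8), leaned to the coleoptile. It was at 2.95 and 6.68 FPKM in the shaded first leaf and at 5.76 and 7.70 FPKM in the white light first leaf, against 15.0 and 11.8 FPKM in the shaded coleoptile and 25.4 and 13.5 FPKM in the white light coleoptile. All 4 first leaf libraries were below all 4 coleoptile libraries. The log2 change was -1.38 ± 0.39 in shade (limma adjusted p = 0.0734) and -1.35 ± 0.39 in white light (adjusted p = 0.0754), so it did not pass with all libraries. The shade change was called in the fit to the shaded libraries (limma adjusted p = 0.0238), where 2205 tested loci were called higher and 1800 lower. With 1 library left out the white light change ran from -1.78 to -0.92.

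The remaining gene, 8'-hydroxylase 3 (LOC_Os09g28390, chromosome 9), was the lowest of the family. It was at 1.16 and 0.639 FPKM in the shaded first leaf and at 1.25 and 1.45 FPKM in the white light first leaf. In the coleoptile it was at 0.0798 and 0.230 FPKM in shade and at 2.33 and 0.325 FPKM in white light. The shaded first leaf lay above the shaded coleoptile, and in white light the tissues overlapped. With no filter on low values its change between tissues had limma adjusted p = 0.435 in shade and 0.925 in white light.

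The ratio of summed dioxygenase FPKM to summed 8'-hydroxylase FPKM was 0.380 and 0.704 in the shaded first leaf and 0.938 and 1.501 in the white light first leaf. In the coleoptile it was 0.487 and 0.186 in shade and 0.353 and 0.0273 in white light. The first leaf was below its white light libraries in shade with no overlap, and the shaded coleoptile libraries lay on both sides of white light replicate 1. This is a ratio of transcripts and not of hormone made or lost.

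**Figure D3:**
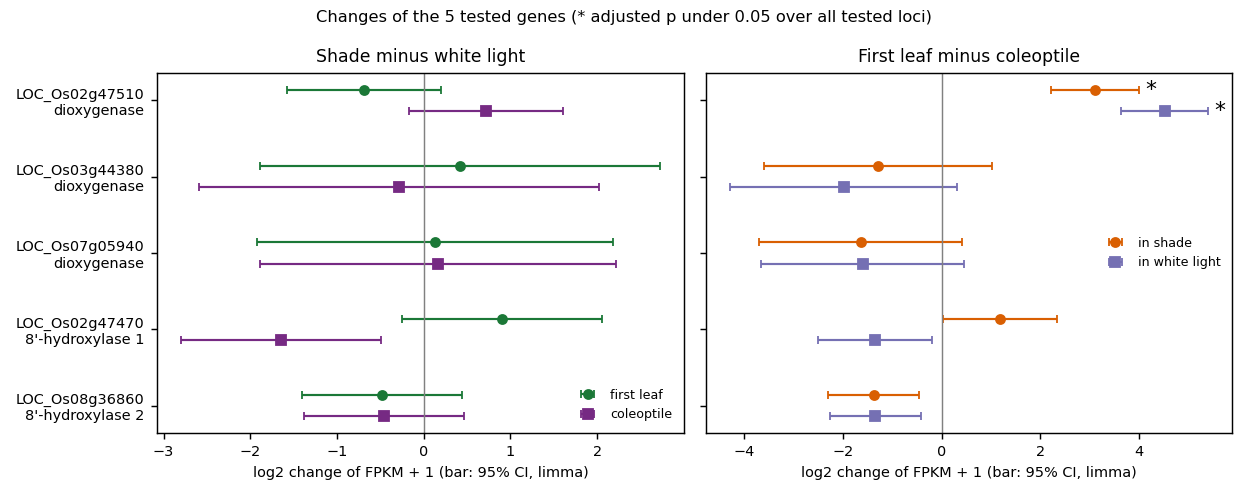
Log2 change of FPKM + 1 (horizontal axis, with 95% confidence intervals from limma) for the 5 tested genes, for shade minus white light in each tissue (left) and first leaf minus coleoptile in each light (right). The stars mark the only called changes, those of LOC_Os02g47510 between tissues (3.11 in shade and 4.52 in white light), and the coleoptile shade interval of LOC_Os02g47470 runs from -2.80 to -0.49.

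The second comparison set 1 h of shade against white light. In the coleoptile 0 of 5 genes were called, against 0.0428% of all tested loci (0.0333% higher and 0.00952% lower in shade). The lowest p among the genes was that of 8'-hydroxylase 1. At 9.64 and 17.7 FPKM in shade against 57.1 and 32.5 FPKM in white light, its shaded libraries were both below its white light libraries. It averaged 13.7 ± 5.71 FPKM in shade, against 44.8 ± 17.3 FPKM in white light (SD, n = 2 each). The log2 change was -1.64 ± 0.49 (SE; 95% confidence interval -2.80 to -0.49; limma adjusted p = 0.281). Larger changes in either direction were found at 2.35% of the tested loci. The change was -1.25 without white light replicate 1 and -2.04 without replicate 2, and its adjusted p over all alternatives ran from 0.0689 to 1.

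In the coleoptile both shaded values of LOC_Os02g47510 lay above both white light values, at levels under 2 FPKM throughout. Its log2 change was 0.72 ± 0.38 (95% confidence interval -0.16 to 1.61; limma adjusted p = 0.629). The changes of LOC_Os03g44380 and LOC_Os07g05940 had no settled direction. For LOC_Os03g44380 it was -0.29 ± 0.98 (95% confidence interval -2.59 to 2.02; adjusted p = 0.990), 1.43 without coleoptile white light replicate 1 and -2.00 without replicate 2. For LOC_Os07g05940 it was 0.16 ± 0.88 (-1.89 to 2.22; adjusted p = 0.993), 1.72 without replicate 1 and -1.39 without replicate 2. In both genes the shaded libraries lay between the white light replicates. Fits without replicate 1 or 2 leave 1 white light coleoptile library, so they hold no spread for that group. The log2 change of 8'-hydroxylase 2 was -0.45 ± 0.39 (95% confidence interval -1.38 to 0.47; adjusted p = 0.873), and its white light replicate 2 lay within the shaded range. The shaded libraries of 8'-hydroxylase 3 were both below its white light libraries (adjusted p = 0.670 with no filter). Counting all 6 genes, libraries lay apart for 1 gene higher in shade and 2 lower, where 17.3% and 15.3% of all tested loci did so.

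In the first leaf 0 of 5 genes were called, and so were 0 of all tested loci (limma; 1152 at an unadjusted p under 0.05, none of them among the 5 genes). LOC_Os02g47510 averaged 18.8 ± 9.26 FPKM in shade, against 29.2 ± 1.95 FPKM in white light (SD, n = 2 each). Both shaded libraries were below both white light libraries, and the log2 change was -0.69 ± 0.38 (SE; 95% confidence interval -1.57 to 0.20; limma adjusted p = 1). Most of it came from shade replicate 1, at 12.3 FPKM, since replicate 2 was at 25.4 FPKM. Without shade replicate 1 it was -0.19. For 8'-hydroxylase 1 the mean was 31.1 ± 1.19 FPKM in shade, against 18.2 ± 12.2 FPKM in white light (SD, n = 2 each). Its log2 change was 0.90 ± 0.49 (95% confidence interval -0.25 to 2.05; limma adjusted p = 1). Without white light replicate 2, at 9.62 FPKM, it was 0.20. The log2 changes of LOC_Os03g44380, LOC_Os07g05940 and 8'-hydroxylase 2 were 0.42 (-1.89 to 2.72), 0.13 (-1.93 to 2.18) and -0.48 (-1.40 to 0.45), each with adjusted p = 1 and overlapping libraries. Counting all 6 genes, libraries lay apart for 1 gene higher in shade and 2 lower, where 21.3% and 18.3% of all tested loci did so.

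The genes LOC_Os02g47510 and LOC_Os02g47470 had opposite shade differences in the 2 tissues. The synthesis gene was lower in the shaded first leaf and higher in the shaded coleoptile, and the breakdown gene was higher in the shaded first leaf and lower in the shaded coleoptile. The difference of the responses, first leaf minus coleoptile, was -1.41 ± 0.53 for LOC_Os02g47510 (95% confidence interval -2.66 to -0.15; limma adjusted p = 0.801) and 2.54 ± 0.70 for LOC_Os02g47470 (0.91 to 4.18; adjusted p = 0.594). Neither passed over all loci, where 0.0190% were called (0.00476% higher and 0.0143% lower). Larger differences in either direction were found at 3.74% and 0.952% of the tested loci. For the other 3 tested genes the adjusted p was 1.000.

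Both genes lie close together on chromosome 2 by their locus numbers. Between them the table lists LOC_Os02g47480, at 0 in every library, LOC_Os02g47490, at most 0.160 FPKM, and LOC_Os02g47500, annotated as a nodulin, at 10.5 to 15.2 FPKM. Over the same libraries LOC_Os02g47510 ran from 0.121 to 30.5 FPKM and LOC_Os02g47470 from 9.62 to 57.1 FPKM.

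The replicates of the white light coleoptile bear on every coleoptile value. Of the 6 genes, 5 were highest of all 8 libraries in white light replicate 1, and LOC_Os02g47510 was the exception. In it LOC_Os03g44380 was 20.8-fold and LOC_Os07g05940 54.9-fold above replicate 2. Only 0.333% and 0.547% of the tested loci had a larger gap between these replicates. The gap was 7.18-fold for 8'-hydroxylase 3, 1.75-fold for 8'-hydroxylase 1 and 1.88-fold for 8'-hydroxylase 2, and 22.2% and 19.2% of the tested loci had larger gaps than hydroxylases 1 and 2. Among coleoptile libraries alone, replicate 1 was the highest for the same 5 genes and for 31.5% of all tested loci. The share of all loci highest in it of all 8 libraries was not counted. Genes linked to stress and wounding were also high in it. The 105 loci annotated WRKY, transcription factors of stress responses, summed to 743 and 722 FPKM in the shaded coleoptile and to 2617 and 1127 FPKM in the white light coleoptile. The 7 ZIM domain loci, repressors of jasmonate signalling, summed to 283 and 281 FPKM in shade, against 2481 and 992 FPKM in white light. In the first leaf the ZIM sums were 462 and 767 FPKM in shade, against 754 and 470 FPKM in white light. Their part in the results was not tested.

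**Figure D4:**
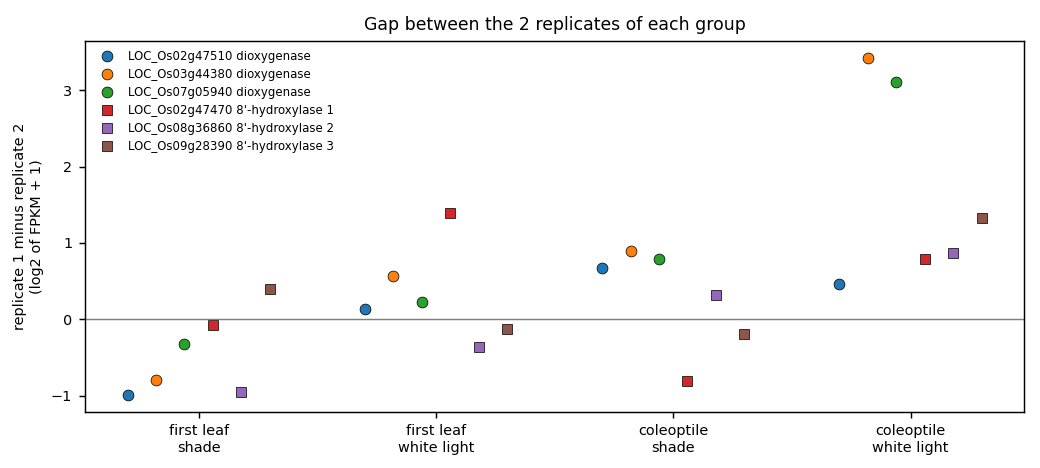
Replicate 1 minus replicate 2 on the log2(FPKM + 1) scale (vertical axis) for the 6 genes in the 4 groups, circles for dioxygenases and squares for 8'-hydroxylases. In the white light coleoptile LOC_Os03g44380 and LOC_Os07g05940 stand at 3.43 and 3.11, and in the other groups the 6 genes lie between -0.99 and 1.39.

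The pattern of each tested gene over the 8 libraries was compared with that of all tested loci by Pearson's r of log2(FPKM + 1), as a description of libraries that share tissue and replicate differences. LOC_Os02g47510 was most like LOC_Os03g60190, a 2OG-Fe oxygenase (r = 0.996), LOC_Os02g40240, a receptor kinase (r = 0.994), and LOC_Os03g59180, an expressed protein (r = 0.993), all of them higher in the first leaf. LOC_Os03g44380 was most like LOC_Os02g02730, an expressed protein (r = 0.993), the beta-amylase LOC_Os03g22790 (r = 0.983) and then the dioxygenase LOC_Os07g05940 (r = 0.981). LOC_Os07g05940 was most like LOC_Os01g46760, a protein phosphatase 2C on the list of abscisic acid signalling genes (r = 0.996), then LOC_Os02g07030 (DUF640 domain, r = 0.993) and LOC_Os07g33280 (expressed protein, r = 0.984). For 8'-hydroxylase 1 they were the VQ domain genes LOC_Os02g15280 and LOC_Os02g15290 (r = 0.968 and 0.967) and LOC_Os10g37760, a rhomboid homologue (r = 0.948). For 8'-hydroxylase 2 they were LOC_Os08g03350, an amino acid transporter (r = 0.982), LOC_Os07g39350, a transporter family protein (r = 0.981), and LOC_Os03g03450, an anthranilate phosphoribosyltransferase (r = 0.980). The 2 abundant hydroxylases were unlike each other (r = 0.108), and LOC_Os02g47510 ran against the other dioxygenases (r = -0.587 and -0.619).

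The rest of the pathway was read from a list of 60 loci, compiled by locus identifier from general knowledge of rice, of which 47 passed the filter. The list holds other synthesis genes, receptors, phosphatases and kinases of signalling, transcription factors and response genes. In shade 0 of the 47 were called in either tissue. The median log2 change was 0.07 in the coleoptile (0.02 over all tested loci) and 0.06 in the first leaf (0.01 over all). Between tissues 2 were called higher and 8 lower in the first leaf in shade, and 3 higher and 8 lower in white light. Of all tested loci 5.67% were called higher and 4.63% lower in shade, and 5.92% and 5.03% in white light. Medians were -0.34 in shade (0.00 over all tested loci) and -0.41 in white light (0.02 over all). In fits without coleoptile white light replicate 1 the counts were 5 higher and 19 lower in shade and 4 higher and 9 lower in white light. Calls over all tested loci grew too, to 2311 higher and 1948 lower in shade and 2079 higher and 1725 lower in white light. Without replicate 2 the list gave 5 higher and 18 lower in shade and 7 higher and 23 lower in white light, and all tested loci gave 2295 higher and 1932 lower in shade and 1781 higher and 2241 lower in white light.

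The other synthesis genes on the list run from phytoene synthase to aldehyde oxidase. Of 11 tested, 8 had a negative log2 change for shade in the first leaf and 3 a positive one (median -0.16), and 0 were called. The zeaxanthin epoxidase LOC_Os04g37619, which makes the epoxycarotenoids, was at 19.2 and 22.9 FPKM in the shaded first leaf and at 44.1 and 43.5 FPKM in the white light first leaf (log2 change -1.03 ± 0.17 SE, limma adjusted p = 0.200). The phytoene synthase LOC_Os12g43130, of the first committed step of carotenoid synthesis, was at 38.0 and 42.7 FPKM in the shaded first leaf and at 87.2 and 85.4 FPKM in white light (log2 change -1.08, adjusted p = 0.470). Its coleoptile values were 46.9 and 42.1 FPKM in shade and 60.7 and 106 FPKM in white light (-0.84 ± 0.26, adjusted p = 0.294). In both tissues all its shaded libraries were below the white light ones. Without coleoptile white light replicate 1 its log2 change in the coleoptile was -1.24. Zeaxanthin epoxidase was called higher in the first leaf than in the coleoptile in white light (log2 change 1.19, adjusted p = 0.00557). LOC_Os01g03750, an expressed protein on the synthesis list, was called lower in the first leaf in shade (-0.92, adjusted p = 0.0177) and white light (-0.98, adjusted p = 0.0133).

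Of 13 loci listed as receptors of the hormone, 3 were at 0 in every library, 5 were tested and 0 were called in any comparison. LOC_Os05g12260 had the smallest p for shade in the coleoptile, at 27.6 and 28.1 FPKM in shade against 37.3 and 42.0 FPKM in white light (log2 change -0.49, limma adjusted p = 0.265). LOC_Os02g15640 was at 75.8 and 83.02 FPKM in the shaded first leaf and at 54.1 and 56.8 FPKM in the white light first leaf (0.51, adjusted p = 1). Among 10 protein kinases listed as of the SnRK2 family, LOC_Os10g41490 was called higher in the first leaf in shade (log2 change 1.42, adjusted p = 0.00833) and in white light (1.34, adjusted p = 0.00953). LOC_Os04g35240, LOC_Os03g41460 and LOC_Os03g27280 were called lower in both lights, the first of them with log2 changes of -1.41 in shade and -1.44 in white light (adjusted p = 0.0160 and 0.0139). Of 6 tested transcription factors, the B3 domain gene LOC_Os01g68370 was called lower in the first leaf in shade (-2.07, adjusted p = 0.00383) and in white light (-1.90, adjusted p = 0.00496), and the bZIP gene LOC_Os06g10880 in white light (-1.28, adjusted p = 0.0340).

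Between tissues 1 of 9 listed phosphatases was called in shade and 0 in white light, and 2 of 6 tested response genes were called in each light, all lower in the first leaf. Protein phosphatases 2C of clade A hold abscisic acid signalling off, and their own genes are induced by the hormone. All 9 listed were tested, and 9 had a negative log2 change, first leaf minus coleoptile, in shade (median -1.27) and 8 in white light (median -0.91). The white light values turned with the coleoptile library used. Without coleoptile white light replicate 1, 2 of the 9 were negative (median 0.13), and without replicate 2 all 9 were negative (median -1.84). LOC_Os05g49730 alone was called, in shade, at 0.936 and 0.857 FPKM in the first leaf against 4.39 and 3.57 FPKM in the coleoptile (log2 change -1.39, limma adjusted p = 0.0339). Of 6 tested response genes all had a negative change in both lights (median -3.85 in shade and -2.95 in white light). Without coleoptile white light replicate 1, 4 of 6 were negative in white light (median -0.72). Without replicate 2, 6 were negative (median -4.95). The shade changes use no white light library, and their medians were the same in those fits. The jacalin-like lectin LOC_Os01g24710 was at 203 and 248 FPKM in the shaded first leaf, against 8625 and 7300 FPKM in the shaded coleoptile (log2 change -5.14, adjusted p = 0.000132). The late embryogenesis abundant gene LOC_Os05g46480 was at 0.0713 and 0.626 FPKM in the shaded first leaf against 158 and 125 FPKM in the shaded coleoptile (-6.74, adjusted p = 0.000553). Both were also called in white light (-5.54 and -6.12, adjusted p = 0.000100 and 0.000847).

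Within the coleoptile many of these genes ranked the libraries alike. LOC_Os03g44380 and LOC_Os07g05940 were highest in white light replicate 1, then in shade replicate 1, shade replicate 2 and white light replicate 2. That order, chosen after the values were seen, was held by 6 of 9 phosphatases and 5 of 6 response genes, where 6.60% of all tested loci held it. The dehydrin LOC_Os11g26790, a protein of drying tissue, was at 66.1 and 42.0 FPKM in the shaded coleoptile and at 133 and 2.57 FPKM in the white light coleoptile. The phosphatase LOC_Os01g46760 was at 10.9 and 7.23 FPKM in shade and at 22.2 and 2.496 FPKM in white light. The order was held by 0 of the 2 tested 8'-hydroxylases, 0 of 11 other synthesis genes and 0 of 5 receptors. It was held by 1 of 10 kinases and 1 of 6 transcription factors. The sums of WRKY and ZIM domain loci differed from it, since white light replicate 2 was second there and last here. As with the dioxygenases, the shade difference turned with the white light library used. For the dehydrin LOC_Os11g26780 the log2 change was 2.38 without white light replicate 1 and -1.30 without replicate 2.

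**Figure D5:**
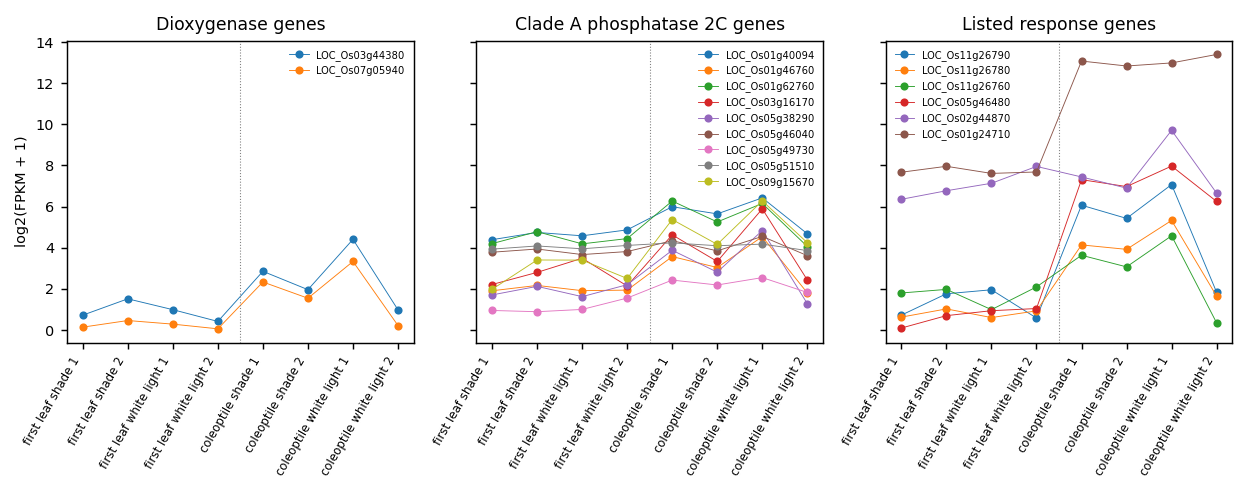
Log2(FPKM + 1) (vertical axis) in the 8 libraries of the dioxygenases LOC_Os03g44380 and LOC_Os07g05940 (left), the 9 clade A phosphatase 2C genes (middle) and the 6 tested response genes (right), with lines only to guide the eye and a dotted line between tissues. In the coleoptile both dioxygenases, 6 of the 9 phosphatases and 5 of the 6 response genes run from white light replicate 1 through shade replicates 1 and 2 to white light replicate 2.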

How the data were processed

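The authors deposited 1 table of FPKM values for 8 libraries with a text annotation per locus. Per the submitters' processing notes, Cuffdiff, Cuffnorm and Cufflinks (each 2.2.1) were used with Bowtie2 (2.2.3) and TopHat2 (2.0.14), besides FastQC (0.11.2), bcl2fastq (2.16.0.10) and Trim Galore (0.3.7). The genome build is not given in the sources used here, so no coordinates are printed, and chromosome numbers come from locus identifiers. Counting error cannot be given, since total fragments are unknown. No count model was used.

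With limma 3.58.1 (R 4.3.3), log2(FPKM + 1) was tested at loci averaging 1 FPKM or more. The 4 groups were fitted together without a replicate block, with an intensity trend (4 residual and 3.26 prior degrees of freedom), and p-values were adjusted by Benjamini-Hochberg over 21014 loci. The fit was tested on simulated data. Tables and figures were made in Python 3.11.15.

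The 6 genes and all lists were chosen with earlier results of these data known. Named genes are the 6, up to 3 called loci per list and comparison with the smallest adjusted p (otherwise the 1 locus with the smallest p), the loci between LOC_Os02g47470 and LOC_Os02g47510, and 3 most similar loci per gene. Values without a white light coleoptile library, LOC_Os12g42280, LOC_Os03g27280, LOC_Os11g26780, LOC_Os11g26790, LOC_Os01g46760 among the phosphatases and the first leaf values of LOC_Os12g43130 were chosen after their values were seen. From the list 1 locus, LOC_Os01g50910, was dropped because its annotation went against its listed role. Roles of listed loci beyond the table's annotation are general knowledge. Alternatives were another pseudocount (0.1), filters, scalings, moderation, fits to fewer groups, a replicate block and each library left out.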

Additional observations from a re-analysis of the deposited data

Results flagged for a closer look

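LOC_Os02g47510 and LOC_Os02g47470 drew attention because every shaded library lay on one side of its white light libraries in the first leaf and on the other side in the coleoptile. In the first leaf, libraries lay apart with shade higher at 21.3% of all tested loci and with shade lower at 18.3%. In the coleoptile these shares were 17.3% and 15.3%. The share of loci on opposite sides in the tissues was not counted. For the dioxygenase LOC_Os02g47510 the first leaf's shade response minus that of the coleoptile was -1.41 on the log2(FPKM + 1) scale (limma adjusted p = 0.801, n = 2 libraries per group). For 8'-hydroxylase 1, LOC_Os02g47470, it was 2.54 (limma adjusted p = 0.594). The test of the difference did not pass for either gene, and over all alternatives the adjusted p ran from 0.314 to 1.000 for LOC_Os02g47510 and from 0.0721 to 1.000 for LOC_Os02g47470. Groups of 2 libraries were too small for a check of single libraries that stand apart.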

How the results depend on the processing

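Of 385 alternative values of the 5 tested genes, 359 kept their direction and their side of the threshold, 11 passed it and 15 turned round, each of them on leaving out 1 library. The tissue difference of LOC_Os02g47510 was called in every alternative (log2 change 4.29 to 6.27 in white light and 2.61 to 3.85 in shade). Leaving out 1 library gave 0 to 1 called gene for shade in the coleoptile and 0 for shade in the first leaf. It gave 1 to 4 called genes for tissue in white light and 1 to 3 for tissue in shade. A fit to the shaded libraries only called 4 genes between tissues. Calls over all 21014 tested loci grew too in that fit, to 2205 higher and 1800 lower in the first leaf. With all libraries they were 1191 higher and 973 lower. With 1 library left out, log2 changes that turned round ranged, for shade in the coleoptile, from -2.00 to 1.43 (LOC_Os03g44380, -0.29 with all) and from -1.39 to 1.72 (LOC_Os07g05940, 0.16). For shade in the first leaf they ranged from -0.956 to 0.00192 (LOC_Os08g36860, -0.48) and from -0.0326 to 0.289 (LOC_Os07g05940, 0.13). For the tissue difference in response they ranged from -1.01 to 2.42 (LOC_Os03g44380, 0.70), from -1.59 to 1.52 (LOC_Os07g05940, -0.04) and from -0.504 to 0.455 (LOC_Os08g36860, -0.02). The cause was not tested. Without coleoptile white light replicate 1 the other pathway loci called numbered 4 for shade in the coleoptile, 1 for shade in the first leaf and 24 for tissue in shade, where 1.10%, 0.243% and 20.3% of all tested loci were called. Without replicate 2 they numbered 6, 1 and 23, with 30 for tissue in white light and 1 for the difference of responses, where 8.28%, 0.243%, 20.1%, 19.1% and 4.22% of all were called. These fits leave 1 library in the white light coleoptile, so their p-values take no spread from that group. They were chosen after seeing the data.

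Over all loci the calls for shade in the coleoptile numbered 9, against 0 with 0.1 as the pseudocount, 0 with only loci averaging 5 FPKM or more, 0 in a fit to the coleoptile groups, 1 with the replicate block, 14 with equal medians and 68 with no filter (56 higher, 12 lower). Without coleoptile white light replicate 1 they numbered 138 higher and 94 lower, and without replicate 2 407 higher and 1332 lower. Gaps between replicates 1 and 2 correlated over tested loci at 0.03 between the coleoptile groups and 0.09 between the first leaf groups. Between tissues they correlated at 0.07 in white light and -0.15 in shade. These values cannot show whether same-numbered libraries were grown together. With the replicate block 0 genes were called for shade in either tissue or for the tissue difference in response. Between tissues 1 was called in each light. Low genes are limited by few fragments, which the deposited values do not count.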
